A study of Mus musculus with 7 samples.

Results

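Chromatin accessibility was described at the genes of the mitochondrial ribosome in regulatory T (Treg) cells with and without Opa1. The members are the protein-coding genes whose symbols begin with Mrpl (large subunit) or Mrps (small subunit) followed by a digit. There were 78 of them, 49 Mrpl and 29 Mrps, among 21900 protein-coding genes of the gene table. A peak was given to a member where it overlapped the gene, or where the gene was the nearest protein-coding gene within 100 kb. This gave 156 of the 50213 peaks, 96 at Mrpl and 61 at Mrps genes, with 1 peak shared by Mrpl46 and Mrps11. The assay was ATAC-seq, where an added transposase inserts sequencing adapters into open DNA, so that the number of reads in a peak measures how accessible the site is. The Treg cells, sorted as CD4+ and Foxp3-YFP+ and as CD45.2+ and CD45.1-, came from the spleen of mouse chimeras, made with equal parts of CD45.1+ marrow and marrow of the genotype studied. WT marrow was Foxp3Cre (4 mice) and Opa1 KO marrow was Foxp3CreOpa1fl/fl (3 mice), so the cells of both groups carry the Cre, which Foxp3 drives, and differ in the floxed Opa1 alleles. Age was not given in the sources used here, and no treatment was named.

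The mitochondrial ribosome translates the few proteins encoded by mitochondrial DNA, all of them subunits of the respiratory chain and ATP synthase. Its RNAs come from mitochondrial DNA, whereas every one of its proteins is encoded in the nucleus, made in the cytosol and imported. The large subunit holds the peptidyl transferase centre and the exit tunnel, and the small subunit decodes the mRNA. Many of the genes start from CpG-rich promoters with sites for ETS factors such as GABPA and for NRF1, factors known for driving nuclear genes of respiration. Opa1 is a dynamin-like GTPase that fuses the inner mitochondrial membrane and shapes the cristae, where the respiratory complexes sit. Some names mislead: the proteins of Mrps30 and Mrps18a sit in the large subunit, and that of Mrps36 is now known as a subunit of the 2-oxoglutarate dehydrogenase complex.

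The promoters shown here belong to genes with a peak within 1 kb of either end of the gene: in each subunit the 3 with the smallest p-values and the 2 with the highest accessibility among such peaks, as far as the RefSeq promoter table (GRCm38.p6, the assembly that mm10 names) holds them. A gene can enter through a peak that is not over the sequence shown, as Mrps2 did, and Mrpl18, whose peak lies 1249 bp from the nearer end of the gene, did not enter. Each is the 250 bases before the annotated start, 5′ to 3′ on the gene's strand. Capitals mark matches on either strand to an ETS core (CCGGAA), an NRF1 half-site (TGCGCA) or a YY1 core (ATGGCGG).
Mrpl41 (chr2:24975099-24975348, minus strand): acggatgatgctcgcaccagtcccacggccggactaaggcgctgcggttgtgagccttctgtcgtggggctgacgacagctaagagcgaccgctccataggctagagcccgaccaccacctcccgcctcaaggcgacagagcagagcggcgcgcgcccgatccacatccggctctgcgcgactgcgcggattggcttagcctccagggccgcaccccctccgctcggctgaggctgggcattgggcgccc
Mrpl11 (chr19:4962056-4962305, plus strand): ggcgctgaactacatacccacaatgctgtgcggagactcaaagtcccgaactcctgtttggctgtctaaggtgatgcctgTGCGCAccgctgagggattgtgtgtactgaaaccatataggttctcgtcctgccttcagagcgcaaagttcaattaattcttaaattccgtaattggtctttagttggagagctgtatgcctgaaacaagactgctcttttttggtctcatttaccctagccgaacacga
Mrpl48 (chr7:100607623-100607872, minus strand): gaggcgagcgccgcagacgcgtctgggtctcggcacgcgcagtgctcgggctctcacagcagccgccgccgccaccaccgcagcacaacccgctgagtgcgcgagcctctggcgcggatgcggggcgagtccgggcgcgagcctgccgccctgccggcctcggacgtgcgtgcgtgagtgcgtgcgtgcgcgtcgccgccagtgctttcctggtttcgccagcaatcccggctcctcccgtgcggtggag
Mrpl17 (chr7:105811088-105811337, minus strand): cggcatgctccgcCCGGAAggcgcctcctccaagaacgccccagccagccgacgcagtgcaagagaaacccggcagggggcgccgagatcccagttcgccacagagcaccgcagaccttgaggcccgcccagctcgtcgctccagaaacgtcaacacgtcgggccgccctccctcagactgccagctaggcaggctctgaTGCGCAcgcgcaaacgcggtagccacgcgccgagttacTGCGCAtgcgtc
Mrpl50 (chr4:49521084-49521333, minus strand): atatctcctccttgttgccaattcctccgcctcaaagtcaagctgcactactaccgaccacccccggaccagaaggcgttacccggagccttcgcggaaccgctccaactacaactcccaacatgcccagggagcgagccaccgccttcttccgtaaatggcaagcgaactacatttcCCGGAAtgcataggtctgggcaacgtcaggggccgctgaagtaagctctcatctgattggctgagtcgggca
Mrps14 (chr1:160194965-160195214, plus strand): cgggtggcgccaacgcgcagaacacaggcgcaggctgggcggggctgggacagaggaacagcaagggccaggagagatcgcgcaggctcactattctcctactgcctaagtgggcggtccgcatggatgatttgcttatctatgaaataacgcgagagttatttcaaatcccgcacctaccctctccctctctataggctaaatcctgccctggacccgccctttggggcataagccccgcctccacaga
Mrps18b (chr17:35916441-35916690, minus strand): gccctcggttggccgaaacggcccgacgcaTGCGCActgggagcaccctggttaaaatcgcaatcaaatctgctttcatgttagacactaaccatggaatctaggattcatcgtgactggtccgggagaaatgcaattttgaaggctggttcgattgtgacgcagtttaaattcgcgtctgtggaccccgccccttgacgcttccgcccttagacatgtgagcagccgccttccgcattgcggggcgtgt
Mrps2 (chr2:28467816-28468065, plus strand): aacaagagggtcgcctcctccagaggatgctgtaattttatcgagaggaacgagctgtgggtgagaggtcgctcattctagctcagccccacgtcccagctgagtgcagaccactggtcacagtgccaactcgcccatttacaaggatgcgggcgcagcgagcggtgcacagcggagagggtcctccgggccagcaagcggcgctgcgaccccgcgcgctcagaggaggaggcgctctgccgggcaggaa
Mrps16 (chr14:20393491-20393740, minus strand): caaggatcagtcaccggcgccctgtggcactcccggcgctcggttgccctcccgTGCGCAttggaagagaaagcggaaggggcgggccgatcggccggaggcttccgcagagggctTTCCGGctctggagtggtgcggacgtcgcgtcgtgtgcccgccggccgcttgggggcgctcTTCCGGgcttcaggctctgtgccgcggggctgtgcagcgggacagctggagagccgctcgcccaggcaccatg
Mrps11 (chr7:78782881-78783130, plus strand): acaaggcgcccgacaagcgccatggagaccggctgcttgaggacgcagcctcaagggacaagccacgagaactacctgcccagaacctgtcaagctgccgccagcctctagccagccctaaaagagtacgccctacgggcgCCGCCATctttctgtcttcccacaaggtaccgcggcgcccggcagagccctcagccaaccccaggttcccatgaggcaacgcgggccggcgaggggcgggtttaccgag
The Mrps16 promoter held 2 ETS cores and 1 NRF1 half-site, and that of Mrpl17 held 1 ETS core and 2 NRF1 half-sites. No match lies in the windows of Mrpl41, Mrpl48, Mrps14 and Mrps2. The last of the 10, before Mrps11, covers the start that Mrps11 shares with Mrpl46, which are read in opposite directions, and it was chosen after its values were seen.

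Of the 69 member genes in the promoter table, 65 had a peak over the window from 250 bases before to 50 bases after the start (94.2%, against 48.0% of 17492 protein-coding genes). Among promoters covered by a peak, 36.9% of the 65 members held the ETS core in the 250 bases before the start, against 26.2% of all 8401. The NRF1 half-site was found in 27.7% of the members and 14% of all covered promoters. The opposite order held for the GC box (GGGCGG), with 47.7% of members and 64.8% of all. The YY1 core was at 1.54% (Mrps11 alone) and 4.4%, where a single member promoter gives no firm order. The 50 bases after the start were not searched for any motif. The CCAAT box (CCAAT) was at 38.5% and 38.2%, the core of the cAMP response element (TGACG) at 32.3% and 30.4%, the E-box (CACGTG) at 6.15% and 9.2%, and the TATA box (TATAAA) at 6.15% and 5.09%. Both strands were searched, and matches of different motifs overlapped in 1 member promoter for each of 5 pairs of motifs. The covered member promoters held a median of 17 CpG dinucleotides and 58.4% G and C, against 17 and 61.2% over all covered promoters. Such a match is a run of letters and not a site shown to be bound.

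The libraries held 1534394 to 3384325 counts in peaks. Exactly halved counts of WT replicates 2 and 3 agreed within sampling noise in a chi-square test over 36418 peaks (p = 0.11). They agreed less well over the 11332 peaks with higher counts (p = 0.038 by chi-square). With halved counts rounded down, the chi-square test gave p = 0.036 over the 36418 peaks and p = 0.03 over the 11332. Agreement within sampling noise therefore depended on the rounding and on the peaks taken. WT replicates 2 and 3 were averaged into 1 sample in every mean ± SD, so n = 3 for each genotype, and all 7 libraries entered the tests. The labels do not say that they are 1 sample. Where they differ, the WT SD leaves out the spread between them. A peak over Opa1 on chromosome 16 (29579139 to 29579524) gave 33.8 to 37.9 CPM (counts divided by the scaled library total, the unit of every level here) in WT and 29.1 to 42.6 CPM in KO. The labels do not say which exons were floxed, so this peak does not check the deletion. Of the Treg and T cell markers, the highest peak stood at 65.9 CPM in Foxp3, 75.7 in Ctla4, 53.6 in Il2ra, 105 in Ikzf2, 30.4 in Cd4 and 14.6 in Cd3e, and Tnfrsf18 had no overlapping peak. Among B cell, myeloid and NK cell markers, Ms4a1, Cd79a, Csf1r, Lyz2 and Ncr1 had no peak, and the highest peak of Pax5, Ebf1, Spi1, Itgam, Cd14 and Klrb1c lay between 2.96 CPM (Cd14) and 16.1 CPM (Spi1). The CD8 T cell markers Cd8a and Cd8b1 reached 7.12 and 20.1 CPM. Of 2 erythroid markers, Gata1 had 2.41 to 8.43 CPM in WT and 10.1 to 13.2 in KO, and Hbb-bt 23.2 to 38.5 in WT and 20.2 to 22.7 in KO. The part of such cells in the results was not tested.

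Nearly every member gene had an open site. A peak was assigned to 75 of the 78 genes, 46 Mrpl and 29 Mrps, which lie on 17 chromosomes. The exceptions were Mrpl21, Mrpl43 and Mrpl51, for which the nearest peak lay 29492, 73339 and 267 bp away, at the genes Cpt1a, Slf2 and Ncapd2. Of the 75 genes, 38 had a single peak and 6 had 5 or more. Over their own promoter window lay 41.0% of the member peaks, and 17.5% of all peaks lay over the window of any gene. The filter on low counts left 129 of the 156 peaks, at 72 genes, for the comparison of genotypes. Among the 27 that it removed, none was above a mean of 6.09 CPM. Mrpl3, Mrps5 and Mrps25 had no other peak, and their promoter peaks averaged 4.46, 3.91 and 4.17 CPM. The promoter peak of Mrpl16, at 3.95 CPM, was also removed.

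**Figure D1:**
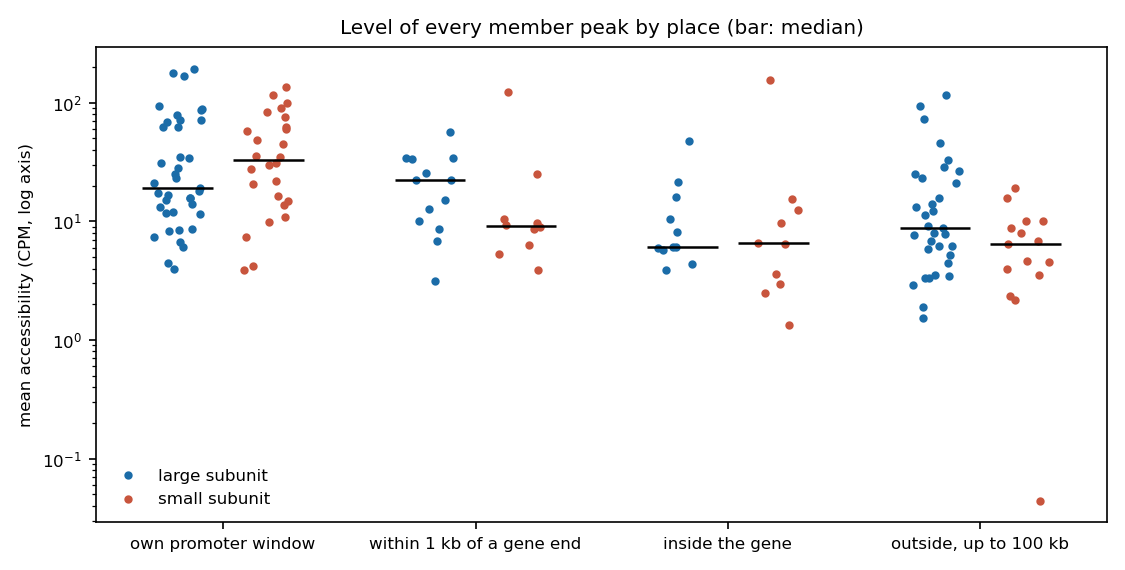
Mean accessibility over the 7 libraries (CPM, log axis) of each member peak, split by its place relative to the gene and by subunit, untested peaks included. Promoter peaks spread from under 5 CPM (Mrps5) to 194 CPM (Mrpl17), and most peaks elsewhere sit below the higher promoter peaks.

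Accessibility of the member promoters spread over a wide range. Their means ran from 3.91 CPM (Mrps5) to 194 CPM (Mrpl17), with a median of 24.2 CPM over 64 peaks, against 31.6 CPM over 8784 promoter peaks of all genes. The tested Mrps promoter peaks had a median of 35.3 CPM and the Mrpl ones 21.1 CPM. Peaks away from the promoter were lower, at a median of 13.5 CPM for Mrpl and 9.61 CPM for Mrps genes. In CPM, a wider peak collects more reads, and the median member peak was 369 bp wide against 319 bp for all peaks.

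Some member promoters were shared with a neighbouring gene. In 22 of the 64 promoter peaks (34.4%) the peak also covered the start window of another gene, protein-coding or not. Over all genes this held for 1320 of 8784 promoter peaks (15%). These shares were not drawn alike. A peak over several start windows can become a member peak through any of those genes, whereas the share over all genes counts each peak once. The part of this in the gap was not tested. The shared member peaks had a median of 46.1 CPM and the others 15.6 CPM, and over all genes the medians were 44.7 and 29.3 CPM. Shared member peaks were also wider, with a median of 541 bp against 390 bp (532 and 440 bp over all genes). The partners described here were chosen after the values were seen. Mrpl18 shared its peak (177 CPM) with Tcp1, a subunit of the cytosolic chaperonin, and Mrpl32 (93.0 CPM) with Psma2, a proteasome subunit. Mrpl47 (86.6 CPM) shared with Ndufb5, a subunit of respiratory complex I. Mrps12 (62.9 CPM) shared with Sars2, the mitochondrial seryl-tRNA synthetase, Mrps27 (59.9 CPM) with Ptcd2, a mitochondrial RNA-binding protein, and Mrpl49 (17.3 CPM) with Fau, which encodes a protein of the cytosolic ribosome. The peak of Mrpl46 and Mrps11 (31.2 CPM) held the starts of a large- and a small-subunit gene at once. The other partners were Zfp189, Hira, Rab6a, Eme1, Mitd1, Klc4, Cyb5rl, Tmem63b, Ska3, 2610507I01Rik, Ppp1r10, Helq, Slc5a3, Gga3 and 4930473A02Rik. Of these, 2610507I01Rik and 4930473A02Rik are not among the protein-coding genes. For shared peaks the reads cannot be divided between the genes.

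No member peak differed between Opa1 KO and WT cells after adjustment over all peaks. Of the 129 tested, 0 passed an adjusted p of 0.05 (edgeR quasi-likelihood test, Benjamini-Hochberg over 38041 peaks), and the lowest adjusted p was 0.333. Over all tested peaks 0.0867% passed, 18 higher (0.0473%) and 15 lower (0.0394%) in KO, so that a count of 0 among 129 lies near the background. At an unadjusted p under 0.05 there were 10 member peaks (7.75%), 6 higher and 4 lower in KO, against 9.47% of all tested peaks (4.74% higher and 4.73% lower). In 6 member peaks every KO library was above every WT library and in 3 every KO library was below, together 6.98%, against 9.36% of all (4.85% above and 4.51% below). The 6 lay at Mrpl17 (its lower peak, of 2), Mrpl19, Mrpl22, Mrpl33, Mrpl41 and Mrps36, and the 3 at Mrpl11, Mrpl46 and Mrps31. In bulk cells, fewer cells with an open site and less opening per cell cannot be told apart. The p-values measure the spread between these libraries, of which WT replicates 2 and 3 may not be independent.

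The intervals show how large a difference these data leave possible. The 95% interval of the KO to WT ratio lay within 2-fold either way in 93 of the 129 member peaks (60.9% of all tested peaks did so) and within 1.5-fold in 38. Promoter peaks were measured more precisely, with 54 of 60 within 2-fold, 33 of 37 for Mrpl and 22 of 24 for Mrps genes. The log2 fold changes (KO minus WT) of the 83 Mrpl peaks ran from -0.95 to 0.77 and those of the 47 Mrps peaks from -0.73 to 0.63. In simulated counts with the same design, the test found 86.4% of 4-fold changes but 35.8% of 2-fold and 16.4% of 1.5-fold changes.

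**Figure D2:**
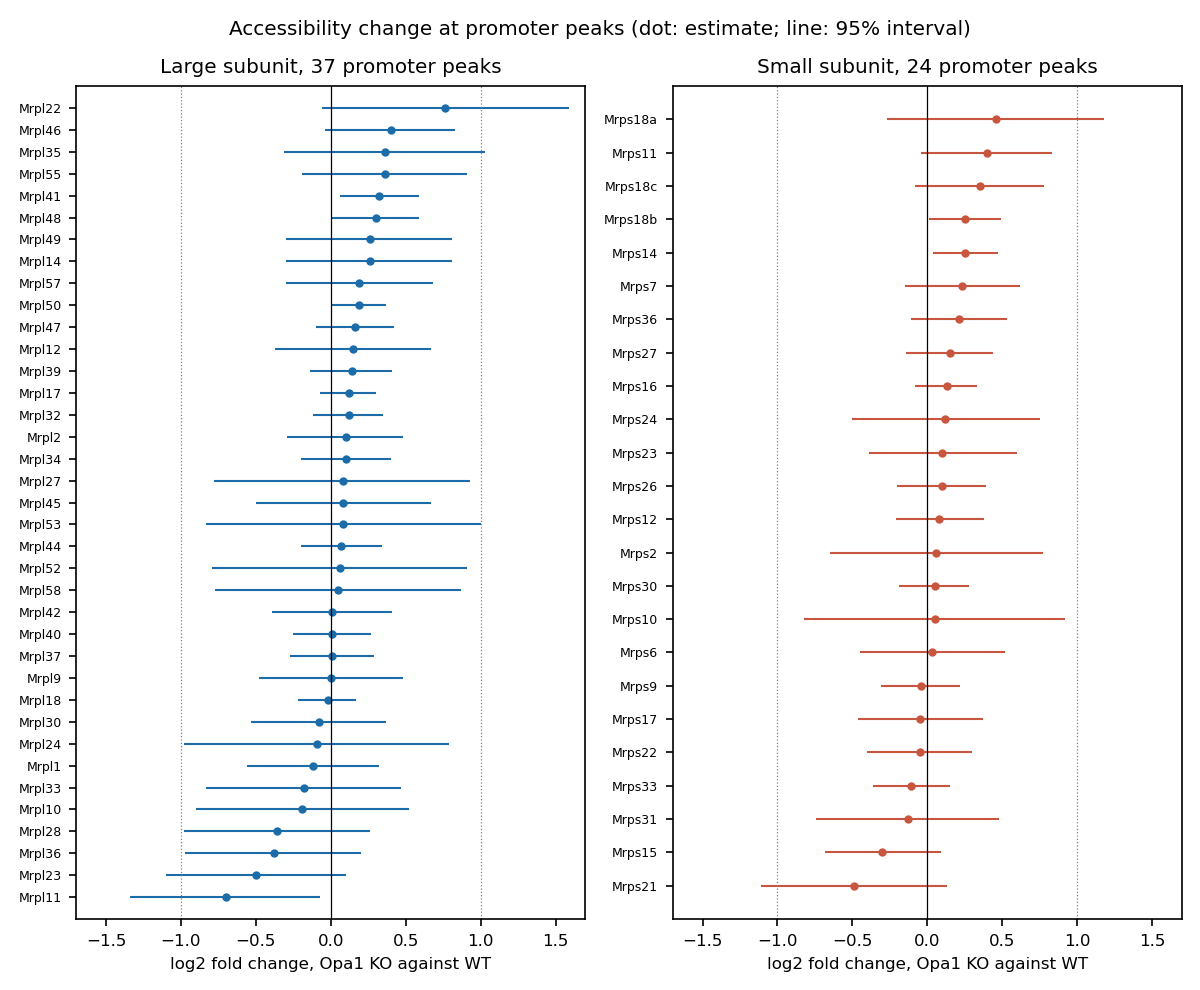
Log2 fold change (KO minus WT) of each tested promoter peak of the member genes, as the estimate with its 95% interval, Mrpl and Mrps apart, with dotted lines at 2-fold. Most estimates lie just above 0. Within 2-fold stay 33 of 37 Mrpl and 22 of 24 Mrps intervals, and the peak shared by Mrpl46 and Mrps11 is drawn in both.

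Among the large-subunit genes, the 8 with the smallest p-values split evenly, 4 higher and 4 lower in KO. Mrpl19 encodes a homologue of a bacterial large-subunit protein, and its peak over an end of the gene, whose strand the promoter table does not give (chromosome 6, 81965555 to 81966125) came first. It gave 28.1, 32.5, 28.9 and 23.2 CPM in WT replicates 1 to 4 and 41.3, 41.7 and 38.8 CPM in KO replicates 1 to 3. Every KO library was above every WT library. The means were 27.3 ± 3.82 CPM in WT and 40.6 ± 1.55 CPM in KO (SD, n = 3). This is a log2 fold change of 0.54 (SE 0.19, 95% interval 0.15 to 0.92, edgeR adjusted p = 0.333). Mrpl41, a protein found in the mitochondrial but not the bacterial ribosome, had its promoter peak on chromosome 2 (24974930 to 24975388) over the sequence shown above. Its values were 70.7, 67.7, 59.0 and 62.2 CPM in WT and 78.9, 82.8 and 83.1 CPM in KO, and the groups did not overlap. The log2 fold change was 0.32 (SE 0.13, interval 0.06 to 0.59, adjusted p = 0.405).

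Mrpl48, a protein of the central protuberance, shares its promoter peak with Rab6a, a GTPase of Golgi transport. The peak (chromosome 7, 100607186 to 100607948) gave 58.6, 60.2, 57.8 and 51.6 CPM in WT and 71.5, 58.1 and 79.8 CPM in KO. KO replicate 2 lay inside the WT range, and the log2 fold change was 0.30 (SE 0.14, adjusted p = 0.502). The peak given to Mrpl33 lies 11192 bp outside the gene (chromosome 5, 31602417 to 31602759), within the noncoding gene Gm38424. It gave 14.5, 9.48, 15.7 and 11.6 CPM in WT and 17.3, 17.7 and 23.7 CPM in KO, with no overlap, and the log2 fold change was 0.59 (SE 0.28, adjusted p = 0.507).

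Of the 4 lower in KO, only the Mrpl11 peak lay over a promoter. Mrpl11 encodes the protein at the base of the stalk where translation factors bind, and its peak spans 4961875 to 4962410 on chromosome 19. The values were 13.6, 14.2, 15.7 and 20 CPM in WT and 10.5, 6.32 and 11.9 CPM in KO, so that all KO libraries were below all WT libraries. The log2 fold change was -0.70 (SE 0.32, adjusted p = 0.471). The peak of Mrpl58, a peptidyl-tRNA hydrolase that releases stalled chains, lies 501 bp outside the gene on chromosome 11 (115413175 to 115413899), over the tRNA gene n-TRcct3. It gave 22.3, 19.0, 33.1 and 27.4 CPM in WT and 16, 20.2 and 18.3 CPM in KO (log2 fold change -0.50, SE 0.25, adjusted p = 0.518), and KO replicate 2 lay above WT replicate 2. The other peaks, of Mrpl39 and Mrpl46, lie 73487 and 8692 bp outside their genes and are described with their loci.

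**Figure D3:**
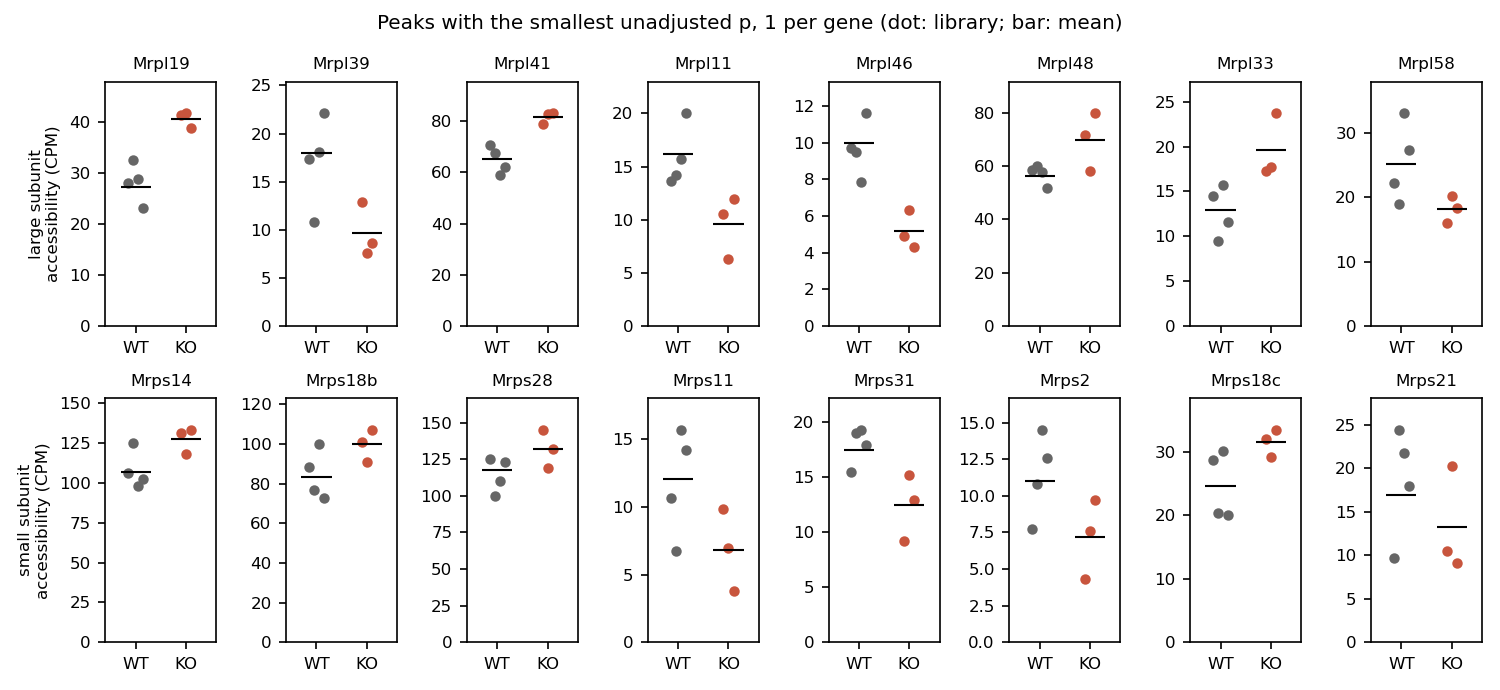
Accessibility (CPM) in each library of the member peaks with the smallest p-values per subunit, WT and KO as dots with a bar at the mean, where WT replicates 2 and 3 count as 1 sample. The groups stand apart for Mrpl19 and Mrpl41 and overlap for Mrpl48, Mrps14 and Mrps18b.

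Among the small-subunit genes, 2 of 47 peaks had an unadjusted p under 0.05, and both were promoter peaks with higher values in KO. Mrps14 encodes a protein of the head of the subunit, and its peak spans 160194837 to 160195358 on chromosome 1. The libraries gave 106, 125, 97.6 and 102 CPM in WT and 131, 118 and 133 CPM in KO. WT replicates 1, 3 and 4 were below all KO libraries, and WT replicate 2 was above KO replicate 2. The log2 fold change was 0.25 (SE 0.11, adjusted p = 0.442). Mrps18b, one of several mammalian homologues of a single bacterial protein, shares its promoter peak (chromosome 17, 35916278 to 35917045) with Ppp1r10, a regulator of protein phosphatase 1. The values were 88.2, 76.5, 100 and 72.7 CPM in WT and 101, 91.0 and 107 CPM in KO, overlapping through WT replicate 3 (log2 fold change 0.25, SE 0.12, adjusted p = 0.515).

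The next 6 small-subunit genes by p-value had adjusted p from 0.547 to 0.649. The Mrps28 peak (chromosome 3, 8923335 to 8924129) had means of 118 ± 11.1 CPM in WT and 132 ± 12.8 CPM in KO, and that of Mrps18c 24.6 ± 4.31 and 31.5 ± 2.23 CPM (SD, n = 3). Lower in KO were a peak inside Mrps11 (12.0 ± 1.92 and 6.86 ± 3.04 CPM) and one 3336 bp outside Mrps31 (17.5 ± 1.84 and 12.5 ± 2.99 CPM). The groups overlapped at the Mrps11 peak, where WT replicate 2, at 6.77 CPM, lay below KO replicates 1 and 2, at 9.86 and 6.95 CPM. The KO libraries of the Mrps31 peak (chromosome 8, 22433005 to 22433467), at 9.24, 15.2 and 12.9 CPM, were all below those of WT, at 15.5, 19.0, 19.3 and 17.9 CPM. A peak inside Mrps2, 248 bp from its first annotated base and over the start of 1700007K13Rik, had means of 11.0 and 7.20 CPM (log2 fold change -0.71, SE 0.39), whereas the peak over the promoter of Mrps2 itself, a homologue of a bacterial small-subunit protein, had a log2 fold change of 0.06. The Mrps21 promoter peak ranged from 9.69 to 24.4 CPM in WT and from 9.17 to 20.2 CPM in KO (log2 fold change -0.49). Its range within each group was wider than the difference between the means.

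The most accessible member peaks had narrow intervals and small differences. The Mrpl17 promoter peak (chromosome 7, 105810878 to 105811483), at a gene whose protein lies beside the exit tunnel, was the highest. It gave 182, 208, 156 and 204 CPM in WT and 213, 217 and 180 CPM in KO. The log2 fold change was 0.12 (SE 0.09, 95% interval -0.07 to 0.30, adjusted p = 0.754). Mrpl18 and Mrpl50 followed, both at shared promoters. Mrpl18 gave 178 ± 13.3 CPM in WT and 176 ± 27.6 CPM in KO (log2 fold change -0.02, SE 0.10), a value whose sign changed with the fit. Mrpl50 (chromosome 4, 49520937 to 49521381) gave 169, 160, 160 and 144 CPM in WT and 183, 191 and 166 CPM in KO (log2 fold change 0.19, SE 0.09, adjusted p = 0.532). Mrpl32, whose protein is cut by a mitochondrial protease before it joins the subunit, gave 88.7 ± 7.49 and 97.3 ± 9.12 CPM (SD, n = 3).

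The highest small-subunit peak lay inside Mrps27, 8309 bp from the gene's start (chromosome 13, 99353076 to 99353567). Mrps27 is a pentatricopeptide repeat protein. The peak gave 160, 186, 154 and 146 CPM in WT and 156, 134 and 147 CPM in KO (log2 fold change -0.14, SE 0.10, adjusted p = 0.702). The Mrps16 promoter peak (chromosome 14, 20393419 to 20393934) gave 133, 141, 136 and 118 CPM in WT and 131, 145 and 158 CPM in KO, and the log2 fold change was 0.13 (SE 0.10, adjusted p = 0.755). At Mrps30 the means were 96.8 ± 5.43 CPM in WT and 102 ± 14.9 CPM in KO (SD, n = 3), and the log2 fold change of 0.05 (SE 0.12) changed sign under 4 of the alternatives.

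Mrpl39 and Mrpl46 had the most peaks, nearly all of them outside the gene. Mrpl39, a protein related to threonyl-tRNA synthetase, had 9 peaks on chromosome 16, of which 8 lay 4038 to 96519 bp outside the gene. All 8 are nearer to Mir155hg, the noncoding host gene of the microRNA miR-155 (84713023 to 84715245), than to Mrpl39. Mir155hg is not the nearest such gene for all of them. Some lie nearer still to the pseudogenes Gm2477 or Gm2349, or within the noncoding gene 4930529L06Rik. The peak over the Mir155hg start (84713036 to 84713554) gave 92.0, 65.0, 69.2 and 82.2 CPM in WT and 71.5, 68.9 and 57.2 CPM in KO. Its log2 fold change was -0.23 (SE 0.14, adjusted p = 0.625). It was singled out after its values were seen. The Mrpl39 promoter peak (84735115 to 84735559) had a log2 fold change of 0.14 (SE 0.14), with means of 77.6 ± 9.90 CPM in WT and 83.3 ± 9.47 CPM in KO (SD, n = 3).

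The peak of this locus with the smallest p-value (84644430 to 84644794) gave 17.4, 10.8, 18.1 and 22.1 CPM in WT and 12.9, 7.58 and 8.63 CPM in KO. WT replicate 2 lay within the KO range, and the log2 fold change was -0.77 (SE 0.31, adjusted p = 0.404). The most accessible one, 96519 bp from Mrpl39 (84621334 to 84621762), gave 143, 114, 126 and 112 CPM in WT and 95.2, 116 and 113 CPM in KO (log2 fold change -0.21, SE 0.11, adjusted p = 0.552). Of the 9 peaks, 4 had a log2 fold change above 0, and the median was -0.21. Over all members, 31 of the 53 peaks outside a gene were nearer to a gene that is not protein-coding than to the member.

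Mrpl46, a protein of the central protuberance, had 8 peaks on chromosome 7. The peak 8692 bp outside the gene (78766250 to 78766649) gave 9.69, 9.48, 7.83 and 11.6 CPM in WT and 4.93, 6.32 and 4.31 CPM in KO, with no overlap (log2 fold change -0.91, SE 0.42, adjusted p = 0.486). The promoter peak that Mrpl46 shares with Mrps11 (78782887 to 78783386) had the opposite sign. It gave 19.4, 40.6, 16.9 and 33.7 CPM in WT and 37.0, 32.9 and 37.8 CPM in KO, and the log2 fold change was 0.40 (SE 0.22, adjusted p = 0.576). The 2 WT libraries that were counted as 1 sample, replicates 2 and 3, differed here by the width of the whole WT range. The 5 peaks of Mrpl1 and the tested ones among the 4 of Mrps11, the 5 of Mrps23 and the 7 of Mrps28 had adjusted p of 0.547 or more. Mrpl15 also had 5 peaks, of which the tested ones were at 8.08 and 34.3 CPM with log2 fold changes of -0.51 (SE 0.42) and -0.08 (SE 0.20). Mrps28 kept 3 of its 7 peaks in the test and Mrps23 kept 3 of 5, since the others were at most 4.61 CPM.

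Summed over each subunit, promoter accessibility was a little higher in KO, as it was over the promoters of all other genes. The 37 Mrpl promoter peaks summed to 1563, 1649, 1554 and 1636 CPM in WT and 1716, 1732 and 1671 CPM in KO, a difference of 6.66%, and the groups did not overlap. The 24 Mrps promoter peaks summed to 1104, 1179, 1101 and 1086 CPM in WT and 1162, 1183 and 1234 CPM in KO, a difference of 7.5%, with WT replicate 2 above KO replicate 1. Over the 8237 promoter peaks of all other genes the sums were 407964 to 418376 CPM in WT and 423873 to 430970 CPM in KO, higher by 3.97% and without overlap. Away from the promoters, the member sums went the other way by less than the SD between KO libraries: 1049 ± 36.3 CPM in WT and 1019 ± 51.8 CPM in KO for Mrpl genes, and 499.5 ± 7.18 and 490.2 ± 39.3 CPM for Mrps genes (SD, n = 3).

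**Figure D4:**
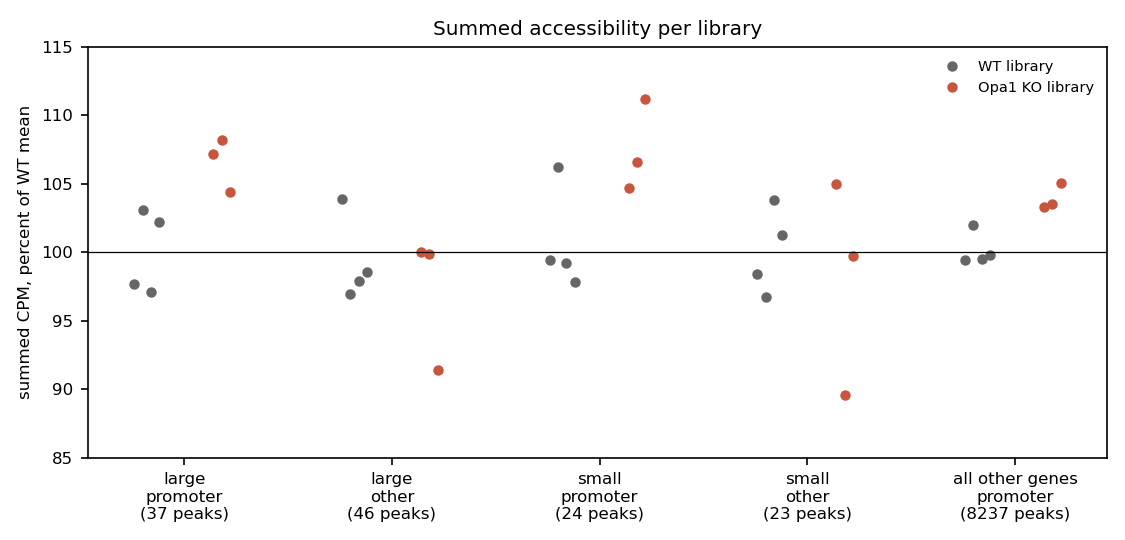
Summed accessibility of tested promoter peaks (Mrpl, Mrps and all other genes) and of the members' other peaks, as a percent of the WT mean. Each dot is a library, and the line marks the WT mean. KO libraries sit above WT libraries for the Mrpl promoters and for the promoters of all other genes, and overlap with them for the Mrps promoters.

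Counted by peak, 26 of 37 Mrpl promoter peaks (70.3%) and 17 of 24 Mrps promoter peaks (70.8%) had a log2 fold change above 0, against 57.8% of 8301 promoter peaks of all genes and 49.8% of all tested peaks. The medians were 0.08 for Mrpl, 0.09 for Mrps, 0.04 for all promoters and -0.02 for the 29740 peaks outside promoters. Members away from their promoters had a median of -0.07, with 32 of 69 above 0. These shares depended on single libraries. Without WT replicate 3, 22 of 37 Mrpl promoter peaks were above 0 (59.5%, against 57.2% of all promoter peaks), and without WT replicate 2, 14 of 24 Mrps promoter peaks were (58.3%, against 57.3%). The Mrpl median without WT replicate 3 was 0.075, against 0.038 over all promoter peaks. Without WT replicate 2 the Mrps median was 0.131, against 0.041, and without KO replicate 2 it was 0.148, against 0.052. With offsets that remove a trend with level (loess), the median of all promoters was 0.007, that of Mrpl promoters 0.06 (24 of 37 above 0) and that of Mrps promoters 0.075 (16 of 24). With library totals as the only scaling the values were 0.013, 0.056 and 0.061. Peaks are not replicates, and no test was made of these counts.

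Over all peaks, the fold change went with the level. The median log2 fold change of all tested peaks was -0.09 below 10 CPM, -0.03 from 10 to 20, 0.03 from 20 to 50, 0.06 from 50 to 100 and 0.07 from 100 CPM up. The member peaks in the same classes had medians of -0.11 (38 peaks), 0.08 (33), 0.10 (31), 0.08 (19) and 0.12 (8). The part of this trend in the promoter sums was not tested.

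**Figure D5:**
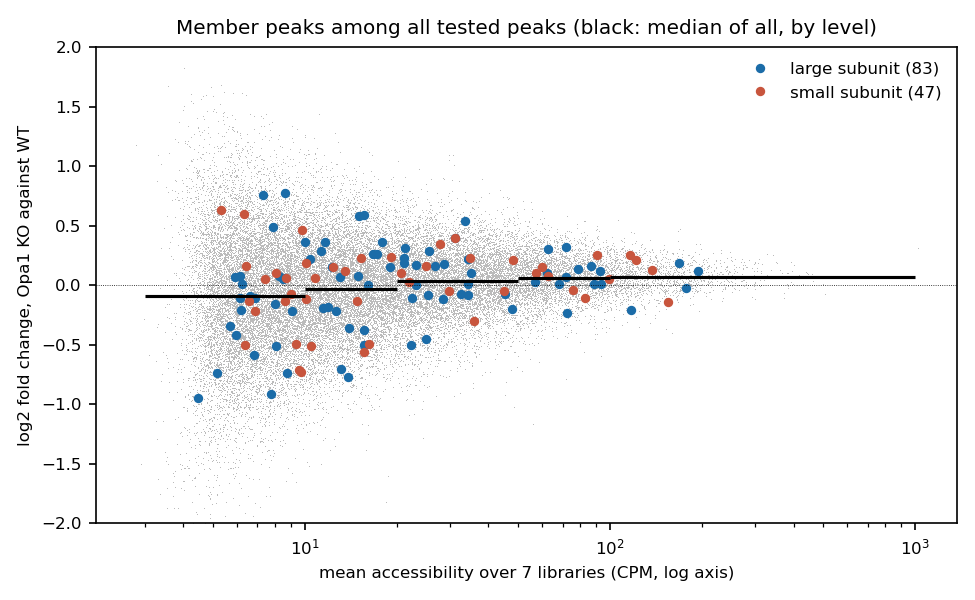
Log2 fold change (KO minus WT) of each tested member peak against its mean accessibility (CPM, log axis), Mrpl and Mrps in separate colours, with black lines at the median of all tested peaks in each class of level. The lines climb from -0.09 below 10 CPM to 0.07 at 100 CPM and above, and the member peaks scatter around them.

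The median log2 fold change was 0.08 in the 23 tested members with an ETS core in the promoter and 0.08 in the 38 without. For the NRF1 half-site they were 0.09 (18 promoters) and 0.08 (43).

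Other genes of mitochondrial translation gave no call either. None of 28 peaks of translation factors, 43 of assembly and rRNA modification factors, 32 of mitochondrial aminoacyl-tRNA synthetases, 30 of mitochondrial DNA maintenance and transcription and 5 of ribosomal proteins without an Mrp symbol passed (0.0867% of all tested peaks did). At an unadjusted p under 0.05 there were 3 (10.7%), 4 (9.3%), 3 (9.38%), 1 (3.33%) and 1 (1 of 5), against 9.47% of all tested peaks. Medians of the log2 fold change were 0.08, -0.09, -0.01, 0.02 and 0.00, with 18, 16, 15, 16 and 2 peaks above 0. The peak inside Nsun4, which encodes a methyltransferase that joins the large and small subunits in assembly, gave 20.3, 18.3, 18.1 and 14.2 CPM in WT and 8.01, 7.58 and 10.2 CPM in KO. The groups did not overlap (log2 fold change -1.04, SE 0.32, adjusted p = 0.232). A peak 9714 bp from Grsf1, an RNA-binding protein of mitochondrial RNA granules, had means of 30.9 ± 7.14 and 17.6 ± 4.29 CPM (log2 fold change -0.77, adjusted p = 0.265).

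The 2 named peaks near Lrpprc, which stabilises mitochondrial mRNA, differed in sign and lie 60164 and 54134 bp from the gene, at -1.11 (adjusted p = 0.256) for the farther and 0.36 (adjusted p = 0.331) for the nearer peak on the log2 scale. The Tfam promoter peak (chromosome 10, 71237918 to 71238331), at the gene that packages and transcribes mitochondrial DNA, gave 48.9, 69.0, 69.2 and 64.3 CPM in WT and 77.3, 73.3 and 77.7 CPM in KO. Every KO library was above every WT library, and the log2 fold change was 0.29 (SE 0.14, adjusted p = 0.506). A peak inside Fars2, the phenylalanyl-tRNA synthetase, stood at -0.89 (adjusted p = 0.312), and the Vars2 promoter peak, at the valyl-tRNA synthetase, stood at 0.87 (adjusted p = 0.358). Aurkaip1, a small-subunit protein without an Mrp symbol, stood at -0.88 (adjusted p = 0.49) in 1 of its peaks and at 0.34 (adjusted p = 0.621) in the other, and a peak 28072 bp from Polg, the mitochondrial DNA polymerase, had 0.58 (adjusted p = 0.56).

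The proteins of the cytosolic ribosome served for comparison. Of 130 tested peaks, at 78 of the 86 genes, 0 passed the adjusted threshold, and 8 had an unadjusted p under 0.05 (6.15%, against 9.47% of all tested peaks). Of their 57 promoter peaks 48 had a log2 fold change above 0, with a median of 0.16 at a median level of 37.6 CPM, against 0.08 and 0.09 at the Mrpl and Mrps promoters. That difference was not tested. The lowest adjusted p was 0.0575, in the peak over Rpl18 on chromosome 7 (45715116 to 45715555), which also covers the start of Sphk2, a sphingosine kinase. It gave 49.4, 56.2, 40.9 and 48.5 CPM in WT and 74.9, 72.0 and 76.6 CPM in KO, without overlap (log2 fold change 0.62, SE 0.15), and it passed under 4 of the alternative settings. A peak 16280 bp from Rpl3 had means of 12.9 ± 5.01 and 5.69 ± 1.1 CPM (log2 fold change -1.24, adjusted p = 0.248).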

How the data were processed

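ATAC-seq libraries from 4 WT and 3 Opa1 KO mice were compared. The authors deposited 1 table of raw, whole-number counts per peak. Per the submitters' processing notes, reads were handled with MACS2 2.1.1, bedtools 2.25.0, SAMtools 1.9, BWA 0.7.16, Trimmomatic 0.36 and Picard 2.9.4 and the mm10 build. Their settings, the merging of peaks and any shift for the transposase offset, which moves peak edges by a few bases, were not stated in the sources used here. Peak positions are printed as deposited, counted from 0 or from 1. Between 78.0% and 86.3% of counts per library were even, which both mates of a read pair would give, so counts overstate fragments. Reads carry no molecular identifiers, so intervals cover the spread between libraries and not PCR duplication.

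Counts were filtered with filterByExpr (38041 peaks kept, 12172 removed), scaled by TMM and fitted with edgeR 4.0.16 (quasi-likelihood, robust, genotype alone, common biological coefficient of variation 0.157) in R 4.3.3, with Benjamini-Hochberg adjustment. CPM uses TMM-scaled library sizes. Limma 3.58.1 and DESeq2 1.42.0 gave alternatives, and Python 3.11.15 the rest. On simulated counts over 36058 peaks, 2 of 94 calls were false. Peaks were matched to a GRCm38 gene table. Promoter windows, from the RefSeq table, were chosen after the tables had been seen. Named were the 8 smallest p-values and the 5 highest mean CPM per subunit (1 peak per gene), the 3 genes per subunit with most peaks (ties in table order: Mrpl15 tied with Mrpl1, and Mrps30 and Mrps31 with Mrps11), untested genes, and 2 peaks per further list. One cell type marker is not reported here. The members and lists were chosen with earlier results of these data known. Of the names in the further lists, 16 of 17 translation factors and 30 of 31 assembly factors matched a gene with that name in the table.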

Additional observations from a re-analysis of the deposited data

Results flagged for a closer look

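Of 41 measures examined over the 4 WT libraries, 1 had a library far from the others. Summed over the promoter peaks of all genes other than Mrpl and Mrps, WT replicate 2 reached 418376 CPM while the other WT libraries lay between 407964 and 409320 CPM. Its gap to the nearest library was 0.87 of the range, above Dixon's 95% critical value for 4 values. Chance alone gives about 1 in 20 such groups. WT replicate 2 was also the highest WT library in the summed Mrpl promoters (1649 CPM) and the summed Mrps promoters (1179 CPM).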

How the results depend on the processing

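No member peak passed an adjusted p of 0.05 in any of the 16 refits, and the lowest adjusted p ran from 0.256 (counts halved) to 0.547 (replicate block). Over 36 named peaks and 569 values, 558 kept their direction and side of the threshold, 4 crossed it (all Rpl18, lowest adjusted p 0.0325) and 7 changed sign. Those were Mrpl18, reported value -0.02, with 0.01 in the replicate block, 0.00 without WT replicate 4, and -0.13 (without KO replicate 2) to 0.08 (without KO replicate 3) when 1 library was left out, and Mrps30, reported value 0.05, with -0.02 under loess offsets, -0.00 in limma-voom, -0.01 with counts halved and -0.04 (without KO replicate 2) to 0.17 (without KO replicate 1) when 1 library was left out. Calls over all peaks numbered 33, against 55 in limma-voom, 60 at a mean count of at least 20, 82 with counts halved, 13 in the replicate block and 15 to 43 when 1 library was left out (18 without WT replicate 1, 15 without KO replicate 1 and 16 without KO replicate 3). With total counts they were 14 higher and 23 lower, and with loess offsets 12 and 23, where the fit reported gave 18 and 15. The causes were not tested. The median of Mrpl peaks, 0.03, was 0.002 with total counts, 0.055 in limma-voom, 0.055 at a mean count of at least 20, 0.073 for overlapping peaks, 0.065 within 10 kb, 0.084 within 1 kb of a gene end, -0.07 for peaks with no other gene within 1 kb and 0.083 over promoters alone, a choice added after seeing the data, and 0.013 to 0.053 when 1 library was left out. That of Mrps peaks, 0.058, was 0.001 for peaks with no other gene within 1 kb and -0.001 (without WT replicate 2) to 0.128 (without KO replicate 2) when 1 library was left out. Grouping Mrps30, Mrps18a and Mrps36 by the place of their proteins, also added later, gave 0.038 and 0.058. Libraries with the same replicate number did not deviate together (r = -0.013, -0.027 and 0.011), and the labels do not say that a number marks a pair; the replicate block, with 13 calls over all peaks, changed no call of a member. Depth and the number of libraries limit what could be seen: of simulated 2-fold changes, in peaks drawn from all tested peaks, 35.8% were found.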
